A study of Mus musculus with 12 samples.

Results

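The GADD45 family and the p53 axis were followed through 7 transcripts, Gadd45a, Gadd45b, Gadd45g, Cdkn1a, Mdm2, Phlda3 and Trp53, chosen by gene name among the 12975 genes of the count table, and all 7 were found there. RNA was measured in the muscle layer of the mouse small intestine in 4 groups of 3 libraries, with an antibody against the HA tag (HA) or a control IgG and at 0 h (T0) or 3 h (T3) after intestinal manipulation, a surgical handling of the bowel that inflames this layer. All 6 mice, naive controls included, carried PLPCreERT2 and the Rpl22HA allele, were 10 to 12 weeks old and had received 2 injections of 100 µl tamoxifen at 15 mg/ml, 3 to 4 weeks before they were killed. In this RiboTag design, Cre is meant to be active mainly in enteric glia, where it adds an HA tag to a ribosomal protein, and ribosome-bound RNA is then precipitated. The lysate of each animal was split, so that each mouse gave 1 HA and 1 IgG library; the IgG fraction holds RNA of the whole muscle layer that sticks without the tag. Values are unique molecular identifier (UMI) counts from the 3′ ends of transcripts, scaled here to the total of each library as CPM, so transcript length does not enter the scale.

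GADD45 proteins are small acidic proteins made within hours of stress. They bind the kinase MAP3K4 upstream of p38 and JNK, and also PCNA, p21 and the CDK1 and cyclin B1 complex. Gadd45a was first found as a gene induced by DNA damage and is a p53 target, whereas Gadd45b and Gadd45g are known as early response genes to cytokines and growth signals. The transcription factor p53, encoded by Trp53, is held low by the ubiquitin ligase Mdm2, itself a p53 target, and is controlled mostly at the protein level. Its other targets include Cdkn1a, which encodes the cyclin-dependent kinase inhibitor p21, and Phlda3, a pleckstrin homology domain protein that inhibits AKT.

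The HA libraries held between 1221788 and 2870591 counts and the IgG libraries between 88136 and 1289833. The IgG T3 libraries were the shallowest, with 88136, 92022 and 248522. A count of 3, taken as the floor, was worth 1.05 CPM at the greatest depth and 34.0 CPM at the lowest, so low transcripts were poorly resolved in IgG T3. The 12 glial markers summed to 4868 to 6033 CPM in HA T0 and 10654 to 10884 in HA T3, against 840 to 991 in IgG T0 and 853 to 2099 in IgG T3. The rise of this sum in HA lay mainly in Cryab (1101 to 1416 CPM at T0, 5481 to 6284 at T3) and Gfap (95.5 to 129.8 and 1515 to 1960), picked out after their values were seen. The other 10 glial markers summed to 3672 to 4558 CPM in HA T0 and to 2924 to 3617 in HA T3. Among these, Sox2 (17.9 to 26.1 CPM at T0, 57.3 to 73.2 at T3) and S100b (464 to 660 and 706 to 959) rose, and Gpr37l1 (1566 to 1874 and 649 to 1036) fell. Of the 12, 4 were called higher with time in HA and 1 lower, against 18.7% and 15.1% of all genes. All 12 had counts in every group. Smooth muscle markers (9 genes) summed to 15605 to 23935 CPM in HA T0 and 12918 to 15218 in HA T3, and to 46840 to 64698 and 41186 to 65133 in IgG. The HA fraction was therefore richer in glial RNA but still held muscle RNA, and it was also richer in the 4 markers of interstitial cells (2741 to 3485 CPM in HA T0, 254 to 356 in IgG T0). Other markers moved with time in HA: the 3 neutrophil and monocyte markers in the table summed to 1.39 to 5.59 CPM at T0 and 18.1 to 116.2 at T3, and the 8 fibroblast markers to 1057 to 1392 at T0 and 312.2 to 546 at T3. Mesothelial markers (6 genes) went from 185.7 to 247.6 CPM at T0 to between 27.2 and 34.8 at T3, interstitial cell markers to between 1216 and 1588, and the 10 macrophage markers from 268.6 to 556 to between 182.5 and 287.5. The 10 neuron markers summed to 1154 to 1359 CPM in HA T0 and 1281 to 2224 in HA T3, ranges that overlapped. Of them, 4 were called higher with time in HA and 0 lower, against 18.7% and 15.1% of all genes. The 7 epithelial markers summed to 64.8 to 333 CPM in HA T0 and 27.8 to 81.6 in HA T3. The sums hide opposite moves in HA. Among the macrophage markers, Cd14 rose from 6.27 to 11.9 CPM at T0 to between 31.9 and 51.5 at T3. Among the neutrophil and monocyte markers, S100a9 rose (0.348 to 1.15 CPM at T0, 16.7 to 98.2 at T3) and Ccr2 did not (1.05 to 5.03 and 0 to 3.89). Fewer cells of a type and less RNA per cell cannot be told apart in these samples. The part of these markers in the results below was not tested.

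To show what lies upstream of the GADD45 genes, their promoter windows were read from RefSeq (GRCm38.p6, the build of mm10), from 250 bases before to 50 bases after the start site. They are shown because 2 of the 3 genes moved together in both fractions. Gadd45a lies on the minus strand (chr6:67037358-67037657), Gadd45b (chr10:80929841-80930140) and Gadd45g (chr13:51846425-51846724) on the plus strand. Capitals mark the E-box CACGTG, the CCAAT box, TATAAA and, in Gadd45a, a p53 half-site, searched on both strands.
Gadd45a: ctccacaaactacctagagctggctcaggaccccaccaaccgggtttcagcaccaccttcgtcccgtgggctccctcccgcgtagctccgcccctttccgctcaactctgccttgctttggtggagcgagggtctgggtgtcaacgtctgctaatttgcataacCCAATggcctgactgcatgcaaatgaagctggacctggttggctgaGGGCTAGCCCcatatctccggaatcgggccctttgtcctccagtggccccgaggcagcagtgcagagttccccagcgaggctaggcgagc
Gadd45b: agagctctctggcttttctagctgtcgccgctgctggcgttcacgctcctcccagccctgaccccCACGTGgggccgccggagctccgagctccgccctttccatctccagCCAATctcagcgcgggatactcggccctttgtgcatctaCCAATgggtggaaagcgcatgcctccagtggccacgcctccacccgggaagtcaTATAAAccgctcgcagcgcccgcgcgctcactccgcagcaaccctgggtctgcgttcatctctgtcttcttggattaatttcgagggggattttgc
Gadd45g: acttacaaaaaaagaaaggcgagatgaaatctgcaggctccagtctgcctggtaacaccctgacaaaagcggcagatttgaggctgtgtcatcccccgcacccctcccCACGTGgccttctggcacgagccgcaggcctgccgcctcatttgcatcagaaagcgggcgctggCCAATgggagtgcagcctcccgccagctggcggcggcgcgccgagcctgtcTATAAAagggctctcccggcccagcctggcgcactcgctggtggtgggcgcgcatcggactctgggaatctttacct
The windows of Gadd45b and Gadd45g both held an E-box, a CCAAT box and TATAAA, in that order toward the start site. Gadd45b had a second CCAAT box and a GC box (GGGCGG) that Gadd45g lacked, and Gadd45g had a match to TGATGNAA (3.97% of promoters) that Gadd45b lacked. The E-box began at -185 in Gadd45b and -142 in Gadd45g relative to the start site, the CCAAT box nearest the start at -100 and -78, and TATAAA at -46 and -27. Of 32851 promoters in the table, 7.15% held the E-box, 37.41% the CCAAT box, 13.62% TATAAA and 0.25% all of them. The 0.25% counts matches on either strand and in any order. It is given for a combination that the windows of Gadd45b and Gadd45g share, so it is a description and no test of shared control. The Gadd45a window held a CCAAT box at -86 and neither of the others, and its p53 half-site (a motif found in 8.36% of promoters) began at -40. By the same search the Trp53 window also held an E-box at 10 and, on the other strand, a CCAAT box at -8 and TATAAA at -248. Neither Cdkn1a window held any of these motifs. The AP-1 motif TGANTCA (7.81% of promoters) and the full cAMP response element TGACGTCA (1.79%) were in none of the 8 windows of the 7 genes. These are matches of letters and do not show binding.

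Gadd45b had the largest log2 change of the 7 transcripts in both fractions and the highest level of them in HA T3. In HA T0 it was at 71.8, 65.9 and 69.3 CPM, and in HA T3 at 2135, 1955 and 1898 CPM. In IgG T0 it was at 43.8, 49.7 and 45.0 CPM, and in IgG T3 at 1486, 1587 and 1400 CPM. The T0 and T3 libraries were far apart in both fractions, and the replicates of a group lay close together. Gadd45b rose by 5.11 on the log2 scale in HA (SE 0.19, adjusted p 1.74e-13) and by 4.98 in IgG (SE 0.31, adjusted p 4.79e-07). It ranked 3 of 9441 genes by p in HA and 2 of 5219 in IgG.

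Gadd45g had the opposite balance between the fractions. It was at 45.3, 41.9 and 27.5 CPM in HA T0 and at 575, 507 and 543 CPM in HA T3. The IgG libraries were higher at both times, with 87.6, 85.7 and 86.8 CPM at T0 and 1271, 1771 and 1787 CPM at T3. No HA library reached an IgG library of the same time. Gadd45g rose by 4.09 in HA (SE 0.22, adjusted p 1.67e-11) and by 4.19 in IgG (SE 0.32, adjusted p 1.68e-06). It was lower in HA than in IgG, with a log2 difference of -1.20 at T0 (SE 0.26, adjusted p 0.00320) and -1.48 at T3 (SE 0.26, adjusted p 0.000538).

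Gadd45a changed in the HA fraction. It was at 54.1, 63.7 and 57.8 CPM in HA T0 and at 218.5, 246.8 and 218.0 CPM in HA T3. In IgG it was at 41.2, 54.9 and 28.7 CPM at T0, and at 22.7, 76.1 and 60.4 CPM at T3, where the libraries held 2, 7 and 15 counts. All HA T3 libraries lay above every other library, while the IgG groups overlapped. Gadd45a rose by 2.23 in HA (SE 0.18, adjusted p 7.60e-09), and the log2 change in IgG was 0.43 (SE 0.48, adjusted p 0.646). Summed over the 3 IgG T3 libraries, 24 counts gave 56.0 CPM with an exact Poisson interval of 35.9 to 83.3 at 95%, which covers counting error only. At T3 Gadd45a was 2.12 higher in HA than in IgG (SE 0.35, adjusted p 0.000279).

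**Figure D1:**
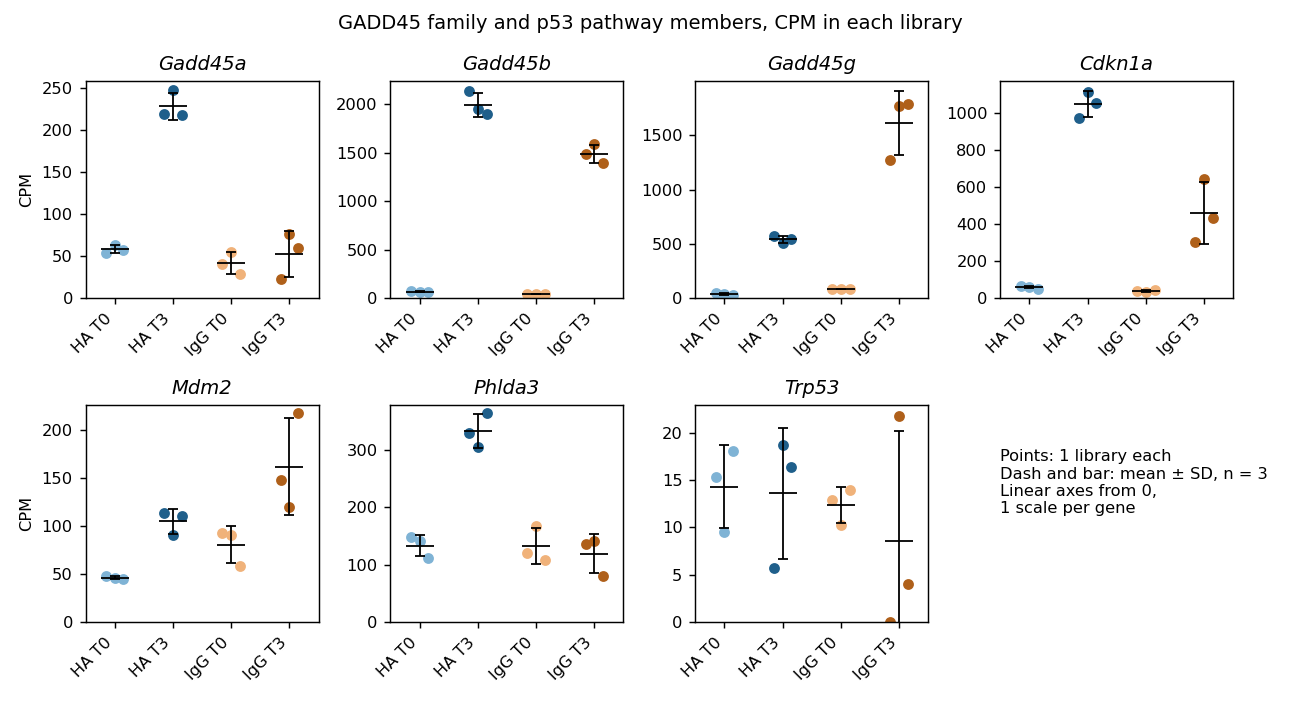
CPM of the 7 transcripts (vertical axes, linear, each gene with its own scale from 0) in the 4 groups of antibody and time. Each point is 1 library, the dash is the mean and the bar is ± SD (n = 3). Gadd45b, Gadd45g and Cdkn1a were high at T3 in both fractions, Gadd45a and Phlda3 were high in HA T3 alone among the 4 groups, and Trp53 stayed under 22 CPM in every library.

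The make-up of the family shifted with time in both fractions. The 3 genes together summed to 165.8 ± 9.65 CPM in HA T0 and 174.4 ± 15.0 in IgG T0 (SD, n = 3), and to 2766 ± 143.8 in HA T3 and 3154 ± 337 in IgG T3. In HA, Gadd45a gave 35.4% ± 3.26 of the family's counts at T0 and 8.26% ± 0.827 at T3. Gadd45b gave 41.7% ± 3.20 at T0 and 72.1% ± 0.764 at T3, with no overlap between the times. Gadd45g gave 22.9% ± 4.53 and 19.6% ± 0.859, and its ranges overlapped, from 17.8% to 26.5% at T0 and from 18.7% to 20.4% at T3. In IgG, Gadd45g gave 50.0% ± 4.58 at T0 and 50.8% ± 4.70 at T3, and Gadd45b rose from 26.5% ± 1.36 to 47.6% ± 5.31. The share of Gadd45a in IgG T3 was 1.63% ± 0.727, and in the library with 2 counts its exact binomial interval ran from 0.099% to 2.92%. With 3 libraries against 3, an exact permutation test cannot give a p below 0.10, so the shares are described by their ranges.

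**Figure D2:**
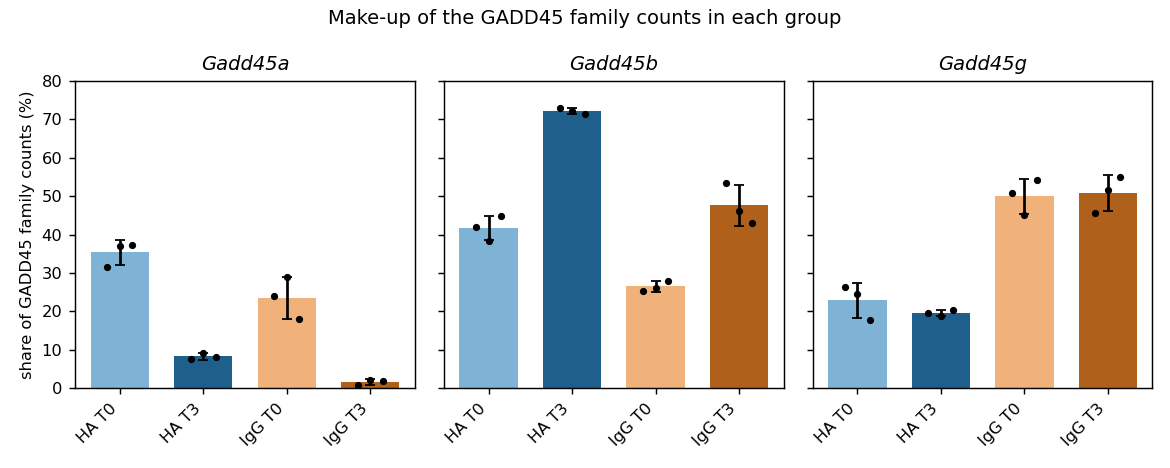
Share of each gene in the summed counts of the GADD45 family (vertical axis, percent) in the 4 groups. Bars are means of 3 libraries with SD, and dots are single libraries. Gadd45b held 72.1% of the family's counts in HA T3, and Gadd45g held 50.0% in IgG T0 and 50.8% in IgG T3.

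Cdkn1a, the p21 gene, has 2 start sites in RefSeq. Both windows are shown because the transcript rose in both fractions and only the upstream one holds p53 half-sites, which are in capitals (chr17:29090729-29091028 and chr17:29093519-29093818, plus strand).
Cdkn1a upstream start: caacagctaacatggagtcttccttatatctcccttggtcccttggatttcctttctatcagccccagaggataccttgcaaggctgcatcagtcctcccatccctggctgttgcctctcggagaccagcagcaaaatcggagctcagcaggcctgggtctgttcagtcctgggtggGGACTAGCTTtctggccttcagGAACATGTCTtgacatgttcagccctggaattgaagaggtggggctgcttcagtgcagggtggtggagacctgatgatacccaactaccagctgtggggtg
Cdkn1a downstream start: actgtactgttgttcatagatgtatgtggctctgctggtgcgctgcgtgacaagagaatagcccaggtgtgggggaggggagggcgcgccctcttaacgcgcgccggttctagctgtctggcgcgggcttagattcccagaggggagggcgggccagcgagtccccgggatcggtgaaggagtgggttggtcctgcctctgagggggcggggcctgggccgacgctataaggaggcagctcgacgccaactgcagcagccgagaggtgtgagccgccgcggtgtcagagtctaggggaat
The half-sites began at -73 and -51 relative to the upstream start. The downstream window had none and held 2 GC boxes (GGGCGG, 35.66% of promoters). The Mdm2 and Trp53 windows also held a p53 half-site, at -186 and -75, and the Phlda3 and Gadd45b windows held none. The 3′ counts do not tell which start was used.

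Cdkn1a was at 66.0, 63.7 and 52.95 CPM in HA T0 and at 975, 1113 and 1055 CPM in HA T3. In IgG it was at 38.6, 34.3 and 45.7 CPM at T0 and at 306.3, 641 and 434.6 CPM at T3. Every HA library was above every IgG library of the same time. Cdkn1a rose by 4.37 in HA (SE 0.20, adjusted p 1.02e-12) and by 3.48 in IgG (SE 0.35, adjusted p 2.67e-05). The excess in HA was 1.29 at T3 (SE 0.28, adjusted p 0.00307), while at T0 the log2 difference was 0.57 (SE 0.26, adjusted p 0.105).

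Phlda3, the AKT inhibitor, did not separate the fractions in naive tissue. It was at 147.8, 140.8 and 112.2 CPM in HA T0 and at 121.1, 168.0 and 107.8 CPM in IgG T0. At T3 it was at 329.8, 304.9 and 365.2 CPM in HA and at 136.2, 141.3 and 80.5 CPM in IgG, from 12, 13 and 20 counts. The HA T3 libraries lay above all others. Phlda3 rose by 1.58 in HA (SE 0.19, adjusted p 1.52e-06), with a log2 change of -0.23 in IgG (SE 0.35, adjusted p 0.754), and it was 1.67 higher in HA than in IgG at T3 (SE 0.30, adjusted p 0.000605).

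Mdm2, the ligase that degrades p53, was at 48.0, 45.8 and 44.6 CPM in HA T0 and at 113.8, 90.3 and 109.8 CPM in HA T3. In IgG it was at 92.7, 90.8 and 58.1 CPM at T0 and at 147.5, 119.5 and 217.3 CPM at T3. In CPM the IgG libraries were above the HA libraries at each time, but with TMM-scaled CPM the T3 fractions overlapped (107.0 to 132.4 in HA, 104.3 to 216.1 in IgG). Mdm2 rose by 1.44 in HA (SE 0.19, adjusted p 7.07e-06). In IgG the log2 change was 1.08 (SE 0.37, adjusted p 0.110), and with all 12 libraries in 1 fit it passed (1.04, adjusted p 0.0360). Mdm2 was lower in HA than in IgG at T0 (log2 difference -0.80, SE 0.25, adjusted p 0.0267). This last call was lost without any 1 of the 3 HA T0 libraries or without IgG T0 replicate 1 or 2 (adjusted p 0.0555 to 0.0974). At T3 the log2 difference was -0.63 (SE 0.30, adjusted p 0.142).

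Trp53 itself was low. It was at 15.4, 9.50 and 18.1 CPM in HA T0 and at 5.73, 18.7 and 16.4 CPM in HA T3, and these groups overlapped. The IgG T0 libraries were at 12.9, 10.3 and 14.0 CPM, and the IgG T3 libraries held 0, 2 and 1 counts. The log2 change in HA was 0.19 (SE 0.37, adjusted p 0.720) and turned to -0.08 with total counts as scaling. The gene was too low to be tested with time in IgG. The RNA level does not report on p53 protein.

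Over the 7 genes, 6 of 7 tested rose with time in HA and none fell (edgeR; 0 fell at an unadjusted p under 0.05 or in DESeq2, in either fraction), against 18.7% of 9441 genes called higher and 15.1% called lower. The HA T3 libraries of the same 6 genes lay above all HA T0 libraries, which held for 15.6% of all genes. In IgG, 3 of 6 tested rose and none fell, against 4.43% of 5219 genes called higher and 1.03% lower, and 4 genes had no overlap between the times, as did 13.4% of all genes on the higher side. Between fractions at T0, none was called higher in HA and 2 were called lower, with 16.0% and 14.4% of 9823 genes called in these directions. Gadd45b and Cdkn1a were higher without overlap, as were 24.7% of genes. Gadd45g and Mdm2 were lower without overlap, and the share of all genes on that side was not taken. By unadjusted p under 0.05, Gadd45b and Cdkn1a were the 2 higher in edgeR, and DESeq2 called 0 higher and 2 lower. At T3, 3 genes were called higher in HA and 1 lower, against 11.8% and 10.2% of 7200 genes. Of the 7, 4 were higher without overlap, as were 19.4% of genes. Gadd45g and Mdm2 were lower without overlap in CPM at T3 too, again with no share over all genes taken. The median log2 change of the GADD45 family was 4.09 in HA and 4.19 in IgG, and the median over all genes was -0.02 in each. With total counts as scaling the median over all genes in HA moved to -0.28 and the split of calls from 1765 higher and 1422 lower to 1208 and 2641. Under that scaling the 6 genes still rose, by 1.18 for Mdm2 to 4.85 for Gadd45b.

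The interaction of antibody and time asked whether the change differed between fractions. Phlda3 passed, with a change 1.92 larger in HA than in IgG on the log2 scale (SE 0.37, adjusted p 0.0156). It was the only one of the 7 to pass in this fit, which does not pair the libraries of an animal. Of 10314 genes, 0.301% passed with a larger change in HA and 0.0291% with a smaller one. With the animal as a block Phlda3 and Gadd45a passed, against 133 of all genes with a larger change in HA and 25 with a smaller one. For Gadd45a the difference was 1.85 (SE 0.44, adjusted p 0.0755), and with the animal as a block it passed (1.84, adjusted p 0.0132). Cdkn1a had a difference of 0.97 (SE 0.37, adjusted p 0.339), Mdm2 0.41 (SE 0.39), Gadd45b 0.23 (SE 0.31) and Gadd45g -0.02 (SE 0.38). These 4 differences, each with an adjusted p above 0.3, do not show equal change, given SE of 0.31 to 0.39. The Phlda3 call was lost with total counts as scaling (adjusted p 0.0974), without HA T0 replicate 2 or 4, IgG T0 replicate 2 or HA T3 replicate 4 (0.0520 to 0.0855), and without both IgG T3 libraries under 100000 counts (0.0683), while the difference stayed between 1.56 and 2.19.

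**Figure D3:**
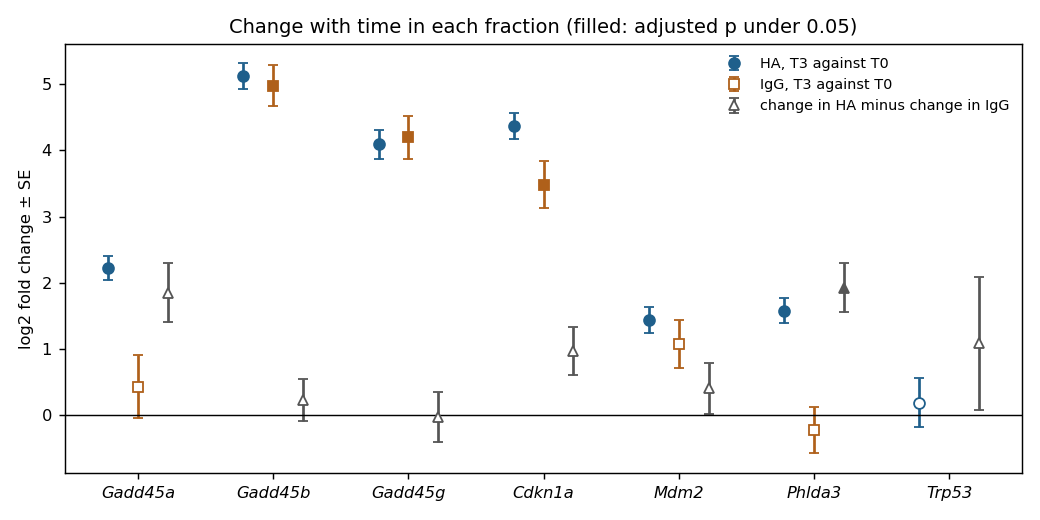
Log2 fold change ± SE of each transcript from T0 to T3 in HA (circles) and IgG (squares), and the difference between both changes (triangles). Filled symbols have an adjusted p under 0.05. Gadd45b, Gadd45g and Cdkn1a changed by more than 3 in both fractions, and the filled triangle is Phlda3 at 1.92. Trp53 could not be tested in IgG.

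Since both fractions of a mouse came from the same lysate, the HA to IgG ratio of CPM was also taken within each animal. The ratio for Phlda3 was 0.838 to 1.22 in the T0 mice and 2.16 to 4.54 in the T3 mice. For Gadd45a it was 1.16 to 2.02 at T0 and 3.24 to 9.63 at T3, the highest from the library with 2 IgG counts. On this scale the ranges at T0 and T3 were apart for these 2 genes, with an exact permutation p of 0.10 each (two-sided), the smallest possible. They overlapped for Gadd45b (1.33 to 1.64 and 1.23 to 1.44), Gadd45g (0.317 to 0.517 and 0.286 to 0.453), Cdkn1a (1.16 to 1.86 and 1.74 to 3.18) and Mdm2 (0.504 to 0.767 and 0.505 to 0.771). Gadd45g and Mdm2 were below 1 in all 6 mice, and Gadd45b and Cdkn1a were above 1 in all 6. The share of all genes with ranges apart, or with all 6 mice on the same side of 1, was not taken. These counts are therefore descriptive. With TMM-scaled CPM, chosen as an alternative after the values were seen, Mdm2 was above 1 in 2 of the 3 T3 mice (0.608 to 1.04), and the ratios of Cdkn1a no longer overlapped (1.10 to 1.89 at T0 and 2.36 to 4.31 at T3).

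**Figure D4:**
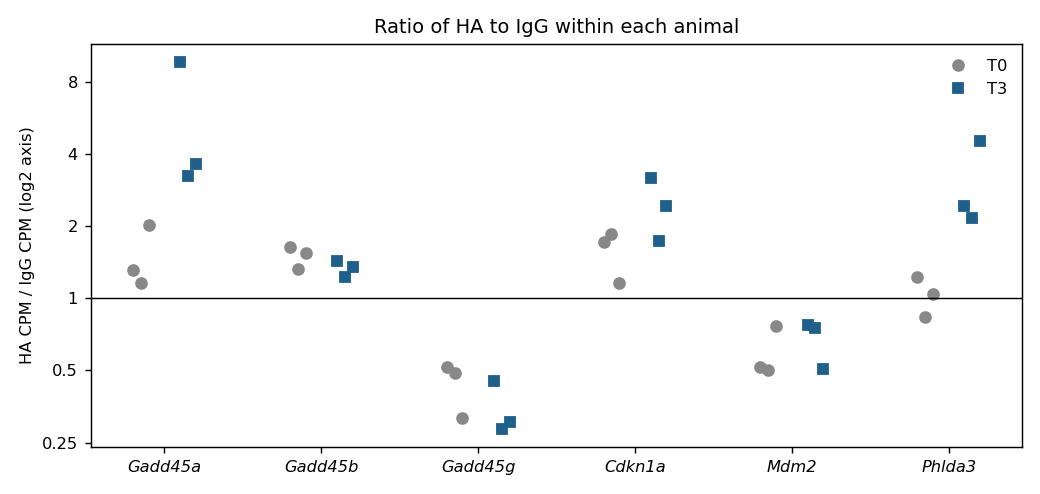
Ratio of HA CPM to IgG CPM within each of 6 mice (vertical axis, log2 scale) for the 6 transcripts with counts in every library, at T0 (grey circles) and T3 (blue squares). The line marks equal CPM. The T3 points of Gadd45a and Phlda3 lie above their T0 points, and those of Gadd45g lie below the line at both times.

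The wider p53 target set moved in both directions. Of 37 listed targets outside the 7 genes, 31 were in the table and 24 were tested with time in HA, where 9 rose and 7 fell, that is 37.5% and 29.17% against the 18.7% and 15.1% of all genes. The median log2 change was 0.12 and that of all genes -0.02. DESeq2 called 10 higher and 4 lower. Among targets in arrest, repair and metabolism, 7 of 18 rose. They included Gdf15, a stress cytokine (6.13, SE 0.26, adjusted p 4.94e-13), the receptor kinase gene Epha2 (3.47, SE 0.22, adjusted p 1.69e-10), the polo-like kinase gene Plk3 (4.17, SE 0.41, adjusted p 1.08e-07), the antiproliferative gene Btg2 (3.35, SE 0.28, adjusted p 8.77e-08) and Ddit4, an inhibitor of mTORC1 (1.17, SE 0.21, adjusted p 0.000224). In the same list 5 fell, namely Ccng1 (-1.16, SE 0.24), which encodes cyclin G1, Rps27l (-0.69, SE 0.19), the polymerase gene Polk (-1.45, SE 0.51), Sesn1 (-0.58, SE 0.21), which encodes a sestrin, and Tigar (-0.66, SE 0.25), a regulator of glycolysis. Their adjusted p were 0.000897, 0.00833, 0.0327, 0.0358 and 0.0483.

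Among targets in cell death, 2 of 6 tested rose in HA, Bbc3, which encodes PUMA (2.10, SE 0.31, adjusted p 2.77e-05), and the death receptor gene Fas (1.84, SE 0.38, adjusted p 0.00100). Perp (-1.11, SE 0.26, adjusted p 0.00243) and Ei24 (-0.69, SE 0.18, adjusted p 0.00626) fell. For Bax, the pore-forming effector, the log2 change was -0.07 (SE 0.18, adjusted p 0.805). In IgG, 2 of 14 tested targets rose and none fell, against 4.43% and 1.03% of all genes. They were Epha2 (3.71, SE 0.65, adjusted p 0.00297) and Btg2 (2.55, SE 0.42, adjusted p 0.00170). None fell in DESeq2 either, and 2 did at an unadjusted p under 0.05. Of 27 tested, 0 passed the interaction in edgeR or DESeq2. In edgeR, 0.301% of 10314 genes passed with a larger change in HA and 0.0291% with a smaller one. With shares this small, 0 of 27 does not set these targets apart. Of the 27, 3 had an unadjusted p under 0.05, and the share of all genes at that level was not taken.

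**Figure D5:**
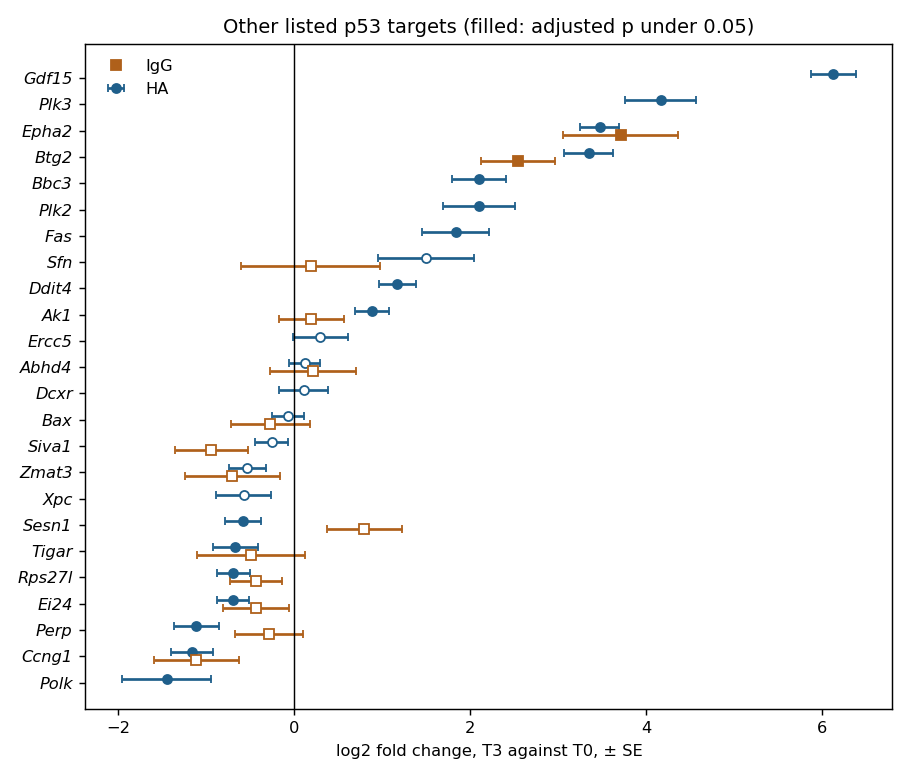
Log2 fold change ± SE from T0 to T3 (horizontal axis) of the 24 other p53 targets tested in HA (circles), ordered by that change, with IgG (squares) where the gene could be tested. Filled symbols have an adjusted p under 0.05. Changes in HA ran from 6.13 for Gdf15 to -1.45 for Polk.

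Between the fractions, 4 of 23 targets tested were higher and 2 lower in HA at T0, and 3 were higher and 3 lower at T3. These are 17.39% and 8.7% at T0, against 16.0% and 14.4% of all genes, and 13.04% each at T3, against 11.8% and 10.2%. Epha2 was 2.60 higher in HA at T0 (SE 0.53, adjusted p 0.00214) and 2.11 at T3 (SE 0.34, adjusted p 0.000250). Abhd4, a lipase gene, was 1.73 higher at T0 (SE 0.26, adjusted p 0.000236) and 1.54 at T3 (SE 0.37, adjusted p 0.00546). Ddit4 was higher at T0 (1.49, SE 0.36, adjusted p 0.00678) and Gdf15 at T3 (4.24, SE 0.45, adjusted p 6.83e-06), where the IgG libraries held 6 Gdf15 counts in all. The 2 lower in HA at T0 were Ccng1 (-0.85, SE 0.24, adjusted p 0.0162) and Trp53inp1 (-1.52, SE 0.49, adjusted p 0.0283). Perp was lower in HA at T3 (-1.71, SE 0.41, adjusted p 0.00544). So was Apaf1 (-1.96, SE 0.55, adjusted p 0.0146), for which the IgG T3 libraries held 13 counts in all.

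Of the regulators of p53, 4 of 11 tested rose with time in HA and 1 fell, against 18.7% and 15.1% of all genes. Trp53bp2, which encodes the p53-binding protein ASPP2, rose by 1.34 (SE 0.20, adjusted p 2.98e-05) and the deubiquitinase gene Usp7 by 0.91 (SE 0.22, adjusted p 0.00309). The acetyltransferase gene Kat5 (0.82, SE 0.20, adjusted p 0.00333) and the kinase gene Hipk2 (0.91, SE 0.33, adjusted p 0.0490) also rose. Chek2, the checkpoint kinase gene, fell by 2.02 (SE 0.29, adjusted p 1.86e-05), from 47.1 ± 6.41 CPM to 9.51 ± 3.35 CPM. It was also called lower in IgG, from 56.1 ± 7.81 CPM to 4 counts in the 3 T3 libraries together. Those libraries were at 8.05 to 11.3 CPM, under the floor of 3 counts (12.1 to 34.0 CPM there). Of 6 regulators tested with time in IgG, 0 were called higher and 1 lower, against 4.43% and 1.03% of all genes. Mdm4, the relative of Mdm2, had a log2 change of -0.03 in HA (SE 0.34, adjusted p 0.962) and was lower in HA than in IgG at T3 (-2.0, SE 0.52, adjusted p 0.00991).

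Of the partners of the GADD45 proteins, 2 of 7 tested rose in HA and 0 fell (0 also at an unadjusted p under 0.05 and in DESeq2), against 18.7% and 15.1% of all genes, and the median log2 change was 0.14. Map2k3, a kinase that activates p38, rose by 2.71 in HA (SE 0.21, adjusted p 3.05e-09) and by 1.79 in IgG (SE 0.45, adjusted p 0.0319). Pcna, the replication clamp, rose by 0.76 in HA (SE 0.28, adjusted p 0.0375), a call that was lost with total counts as scaling and in DESeq2. Map3k4, which GADD45 proteins activate, had a log2 change of 0.14 in HA (SE 0.23, adjusted p 0.665).

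Among the cell cycle genes around p21, the cyclin D1 gene Ccnd1 rose by 1.79 in HA (SE 0.18, adjusted p 2.05e-07), from 201.3 ± 30.6 to 581 ± 104 CPM, and its change in IgG was 0.46 (SE 0.41, adjusted p 0.571). The difference of these changes was 1.40 (SE 0.41, adjusted p 0.172). Ccne1, the cyclin E1 gene, also rose in HA (1.57, SE 0.36, adjusted p 0.00201). At T0, 4 of 5 G1 genes tested were higher in HA than in IgG, and the same number at T3, against 16.0% and 11.8% of all genes. Of the other inhibitors of cyclin-dependent kinases, Cdkn2d rose in HA (0.77, SE 0.22, adjusted p 0.00901) and Cdkn2c fell (-0.93, SE 0.32, adjusted p 0.0307). Of 8 genes of S phase and mitosis in the table, 2 were high enough to be tested in HA, and Pcna was the one that passed.

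Across the 12 libraries, the genes most like each member were ranked by the Pearson correlation of log2 CPM. These correlations describe libraries that differ in antibody, time and depth, and carry no test. Gadd45b was most like the early response genes Egr3 (r = 0.997), Csrnp1 (0.995) and Egr1 (0.995), and Cdkn1a ranked 22 of 10313 for it. Cdkn1a was most like Pqlc1 (0.989), the metallothionein gene Mt1 (0.989) and Erf (0.988), and Gadd45b ranked 19. Gadd45g was most like Dot1l (0.989), Ccnl1 (0.988) and Rnf19b (0.977), and Mdm2 most like Gse1 (0.947), Fosl2 (0.935) and Ahnak (0.932). Gadd45g ranked 18 for Mdm2. Gadd45a was most like Trim8 (0.966), Hnrnpab (0.965) and Cstb (0.955), and Phlda3 most like Psmb4 (0.965), Agfg2 (0.963) and Spata13 (0.957). Gadd45a ranked 33 for Phlda3. Trp53 was most like Rbm14 (0.968), Nme5 (0.958) and Nipsnap3b (0.942), at levels near the floor. Among the 7 genes, the closest partner by r was Cdkn1a for Gadd45b (0.976), Gadd45b for Gadd45g (0.910, with Mdm2 at 0.899), and Phlda3 for Gadd45a (0.883). By Spearman correlation Cdkn1a stayed closest to Gadd45b (0.944), but the other pairings changed. Gadd45g was then closer to Mdm2 (0.902) than to Gadd45b (0.580), and Gadd45a closer to Cdkn1a (0.797) than to Phlda3 (0.636).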

How the data were processed

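RNA of 12 RiboTag pull-down libraries was measured by a bulk version of MARS-seq. The authors deposited UMI counts for each gene, without normalisation. Per the labels and the study's methods, these were made by adapter trimming (cutadapt), alignment to mm10 (STAR 2.4.2a) and HTSeq counting in a window of 1000 bases before and 100 after each 3′ end, and the authors kept genes with 5 reads in a sample. Of the 12975 genes in the UMI counts used here, 189 reached a count of 5 in no library. The use of strand is not stated. No annotated gene overlapped the 3′ window of a member in GENCODE M21. The study normalised with DESeq2 1.26.0.

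Genes were tested in edgeR 4.0.16 (R 4.3.3) with its quasi-likelihood F-test, robust, with TMM scaling, filterByExpr and Benjamini-Hochberg adjustment over all genes tested, at 0.05. Each comparison of 2 groups used its 6 libraries and the interaction all 12. SE were taken from the F statistic. Code was tested on simulated counts. Alternatives were RLE (size factor) scaling, total counts, no filter, at least 5 counts in 1 library, DESeq2 1.42.0, 1 fit of all 12 libraries, a replicate block and leaving out each library. HA and IgG libraries of an animal came from 1 lysate, and their deviations from the group means correlated at 0.089 to 0.273 (6 pairs), so the animal pairs them. CPM are given per library or as mean ± SD. Intervals cover counting error only.

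The members and lists were chosen with earlier results of these data known. Named genes were the 7 members and, from the fixed lists, up to 5 genes per direction past the threshold with time in HA, the same genes and up to 2 more in other comparisons, and the 3 genes most like each member by correlation of log2 CPM with a prior count of 2. Bax and Map3k4 were named after their values were seen. Of 180 listed genes, 157 were in the table and the others are not analysed here. Promoters came from RefSeq for all 7 members. Of the motifs searched on both strands, those not described in the text were the cAMP response half-site TGACG (within TGACGTCA), the CArG box and the kappa B site. The kappa B site in the Trp53 window overlaps its CCAAT box. Marker lists of other cell types were summed as CPM.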

Additional observations from a re-analysis of the deposited data

Results flagged for a closer look

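The change of Phlda3 with time differed between the fractions by the interaction test, with a log2 difference of 1.92 (SE 0.37, 12 libraries) and an adjusted p of 0.0156 in edgeR. All 3 within-animal ratios of HA to IgG at T3 were above all 3 at T0, and the share of all genes with such a separation was not taken. Over its 19 alternatives the adjusted p ran from 0.000261 to 0.0974 and the difference from 1.56 to 2.19. The IgG T3 side rests on 45 counts.

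Gadd45a differed between the fractions with the animal as a block, by 1.84 (adjusted p 0.0132), and without the block at an adjusted p of 0.0755. Of its 19 alternatives 2 passed, the block and DESeq2 (1.67, adjusted p 0.0151). Over them the adjusted p ran from 0.0132 to 0.289, and its IgG T3 side rests on 24 counts.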

How the results depend on the processing

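The calls of all members for time in HA, and those of Gadd45b, Gadd45g and Cdkn1a for time in IgG, kept their side of the threshold under every alternative run, as did Gadd45a, Phlda3, Cdkn1a and Gadd45g between the fractions at T3 and Gadd45g at T0. Leaving out 1 library gave 1 to 2 members and 2144 to 2949 genes called between fractions at T0 (2 and 2980 with all). It gave 849 to 1977 genes called at T3 (1578 with all) and 162 to 334 for time in IgG (285 with all). In the interaction it gave 5 to 95 genes (34 with all) and 0 to 1 members. The count for time in IgG was 519 with no filter and 705 with all 12 libraries in 1 fit. The interaction called 20 genes with RLE scaling, 8 with total counts, 83 in DESeq2 and 158 with the replicate block, and its members called were 0 with total counts and 2 in DESeq2 and with the block. Without both IgG T3 libraries under 100000 counts, an alternative added after the totals were seen, it called 6 genes and 0 members, and Mdm2 turned to -0.12. The cause of these shifts was not tested.

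Gadd45b between the fractions at T3 passed with no filter (0.78, adjusted p 0.0461), in DESeq2 (0.49, 0.0219), with all 12 libraries (0.80, 0.00718) and without the shallow IgG T3 libraries (0.64, 0.0352), and Mdm2 passed without those libraries at T3 (-0.93, 0.0318) and for time in IgG (1.54, 0.0312). The differences near 0 changed sign without ever passing. Phlda3 at T0 was -0.0086 with RLE, -0.0082 in DESeq2, -0.0098 with the block and -0.12 to 0.22 without 1 library. Trp53 for time in HA was -0.079 with total counts, -0.36 with the block and -0.11 to 0.56 without 1 library. In the interaction, Gadd45b was -0.16 with total counts, and Gadd45g was 5.2e-05 with no filter, 0.058 with the block and -0.25 to 0.10 without 1 library. Numbers 1 and 4 recur at T0 and T3 in different animals, with correlations of 0.011 to 0.169, and blocking on them changed no other call. TMM-scaled CPM moved 8 of 28 group means by more than 1 SD, and by Spearman correlation 18 of 21 genes most alike left the first 3 places. IgG T3 depth limits what could be seen of Gadd45a, Phlda3 and Trp53 there.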
